A study of Mus musculus with 2 samples.

Results

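The genes described here encode the precursors of proteins that aggregate in neurodegenerative disease, and their closest relatives. They are the amyloid precursor protein gene App with its homologs Aplp1 and Aplp2, the integral membrane protein gene Itm2b, the tau gene Mapt, the beta-synuclein gene Sncb and the prion protein gene Prnp. Members were every probe set that the platform's annotation assigns to 1 of these symbols alone, which gave 21 probe sets of 7 genes, out of 18193 named genes. The 2 samples measured are cerebellar granule cell layer cut out by laser capture microdissection from intact male C57BL/6J mice aged 8 weeks with no genetic change or treatment named. Brains were frozen and cut at 12 μm, and roughly 1 ng of total RNA per sample went through 2 rounds of amplification before hybridisation to Affymetrix GeneChips. Both sample titles name animal 1. The samples, called sample 1 and sample 2, may therefore share an animal, and the SD between them is not read as a spread between animals. Both belong to 1 group, so the values below describe 2 arrays and no test between conditions was made.

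App is a membrane protein that is cut either by alpha-secretases within the amyloid-beta stretch or by the beta-secretase Bace1 and then by the gamma-secretase complex, which releases amyloid-beta. Aplp1 and Aplp2 are cut by the same kinds of enzyme but lack the amyloid-beta stretch. Itm2b, also called BRI2, is cut by furin-like proteases and by Adam10, and binds App and limits its cutting. Tau stabilises axonal microtubules, beta-synuclein is a presynaptic protein, and the prion protein is a glycoprotein anchored to the outside of the neuronal membrane. The granule cell layer holds mostly granule neurons, whose axons form the parallel fibres.

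Of the 45037 probe sets that are not controls, 30.8% were above background in both samples, as were 38.0% of the named genes. Background means an intensity above the 95th percentile of genes typical of other organs. For single probe sets this threshold was 12.6 in sample 1 and 18.25 in sample 2, and for genes, each represented by its brightest probe set, 19.1 and 29.8. Of the 11 measured granule neuron markers 10 were above background, led by the GABA-A receptor subunit gene Gabra6 at 8189.4 and 8327.0. The remaining marker, Slc17a7, passed in neither sample, at 18.9 and 22.4. A gene not above background is therefore not read as not expressed, here or below. Markers of other cells were also above background, 6 of 8 for Purkinje cells, 4 of 8 for GABAergic interneurons, 1 of 3 for unipolar brush cells, 7 of 10 for astrocytes and Bergmann glia, 5 of 9 for oligodendrocytes, 2 of 10 for microglia, 4 of 9 for endothelial cells and pericytes, and 0 of 7 for choroid plexus and meninges. The summed intensity of the markers was 1088 in sample 1 and 1527 in sample 2 for Purkinje cells, 414 and 612 for microglia, and 7769 and 7271 for oligodendrocytes. Bright genes carry much of them, as Csf1r (251.4 and 410.8) for microglia and Mbp (5722.1 and 5133.1) for oligodendrocytes. Mbp, Cnp and the microglia marker C1qb were read by _x_at sets, which can match more than 1 transcript. The sums of these types may therefore not be of the named genes alone. Of the Purkinje markers above background, 1 was higher in sample 1 and 5 in sample 2. For microglia these numbers were 0 and 2, and for oligodendrocytes 3 and 2. Of the 6 Purkinje markers, 2 were at least 2-fold apart, Rgs8 (107.9 and 273.9) and Ppp1r17 (20.6 and 72.4). Among the other marker lists only the GABAergic marker Pvalb (107.1 and 52.8) was. Over all named genes above background the share was 10.2%, not matched for intensity. Among microglia markers that did not pass, Tyrobp (56.3 and 25.9) and Cx3cr1 (29.0 and 7.9) were higher in sample 1. The sums are not read as differences in cell content. The share of these cells in the signal of the genes below was not tested. In dissected tissue, fewer cells of a type and less RNA per cell cannot be told apart.

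All 7 genes were above background in both samples, against 38.0% of all named genes. Of the 21 probe sets, 15 were above background in both samples, against 30.8% of all probe sets, and 6 were not. The genes are known brain genes and were proposed with earlier results of these arrays in view, so neither share is read as particular to them. Intensities depend on the probes of each set. The levels of different genes are therefore given side by side and are not ranked.

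The promoters are shown because all that were found hold the same short motif. The choice of members did not use promoter sequence, but was made with earlier results of these arrays in view. RefSeq's promoter windows (GRCm38.p6) were found for 6 of the 7 genes, all but Mapt, and the 250 bases before the annotated start were examined. All 6 windows held the GC box letters GGGCGG on at least 1 strand, compared with 32.7% of all 32851 windows and with 58.9% of the 7374 windows of genes above background in both samples. The CCAAT box letters CCAAT were in 3 of the 6 windows, compared with 33.8% of all windows and 35.0% of those of genes above background. The TATA box letters TATAAA were in 1 of the 6, that of Prnp, where they lie on the opposite strand, compared with 12.4% and 6.05%. GC content was 58.8% in Prnp and Sncb, 66.0% in Aplp1, 66.4% in Aplp2, 68.8% in Itm2b and 70.8% in App, where the median was 52.4% over all windows and 60.8% over those of genes above background. The windows held 10 (Sncb) to 23 (App) CpG dinucleotides, against a median of 6 over all windows and 17 over those of genes above background. The windows are shown because of the GC box count, 1 of 3 motifs examined, so its 6 of 6 is not read as particular to these genes. A match of letters is a description and not a binding site. The windows of App and Sncb overlap a longer record of the same gene and are not printed. The other windows run 5′ to 3′ along the gene, and capitals mark the letters of the 3 boxes on either strand, so that CCGCCC and ATTGG are the opposite-strand forms.
Prnp (chr2:131909678-131909927, plus strand): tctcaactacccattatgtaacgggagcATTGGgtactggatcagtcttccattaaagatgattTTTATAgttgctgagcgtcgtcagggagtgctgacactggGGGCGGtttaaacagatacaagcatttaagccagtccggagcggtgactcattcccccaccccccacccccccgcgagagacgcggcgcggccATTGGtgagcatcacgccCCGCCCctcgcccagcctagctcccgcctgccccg
Itm2b (chr14:73385290-73385539, minus strand): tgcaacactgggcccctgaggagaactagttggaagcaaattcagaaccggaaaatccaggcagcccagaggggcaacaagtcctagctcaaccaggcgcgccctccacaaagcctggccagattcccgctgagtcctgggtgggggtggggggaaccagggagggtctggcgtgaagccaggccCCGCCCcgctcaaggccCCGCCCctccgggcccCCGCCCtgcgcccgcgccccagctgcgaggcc
Aplp2 (chr9:31211849-31212098, minus strand): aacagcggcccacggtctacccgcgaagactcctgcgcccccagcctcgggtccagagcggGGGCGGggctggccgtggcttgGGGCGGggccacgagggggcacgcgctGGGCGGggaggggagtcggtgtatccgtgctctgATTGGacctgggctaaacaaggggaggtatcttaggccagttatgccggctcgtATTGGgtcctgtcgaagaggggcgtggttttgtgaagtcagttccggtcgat
Aplp1 (chr7:30445583-30445832, minus strand): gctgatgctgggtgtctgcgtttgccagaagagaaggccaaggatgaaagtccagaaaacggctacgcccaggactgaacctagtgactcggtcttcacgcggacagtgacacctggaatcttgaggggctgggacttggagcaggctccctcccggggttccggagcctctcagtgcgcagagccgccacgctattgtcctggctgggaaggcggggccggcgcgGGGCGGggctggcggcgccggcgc

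App, the source of amyloid-beta, had 4 probe sets, of which 2 were above background. Its brightest, 1427442_a_at, read 2389.2 in sample 1 and 2485.0 in sample 2 (2437 ± 67.7, mean ± SD, n = 2). The samples differed by 1.04-fold. Probe set 1420621_a_at had 120.1 and 122.6, which is 1.02-fold apart. Both sets were slightly higher in sample 2 as deposited, and both turned with median scaling. The remaining sets, 1438374_x_at at 5.6 and 7.1 and 1438373_at at 0.5 and 0.2, were below background in both samples. With values under a sample's threshold set to that threshold, the brightest set exceeded the dimmest by at least 7.33 on the log2 scale, averaged over the samples. Taken the same way, the median range of the 819 genes with 4 probe sets and at least 1 above background was 3.03, and the middle 50% of them lay between 1.94 and 4.27.

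Aplp1, the homolog found mainly in neurons, had 2 probe sets, both above background. Set 1435857_s_at had 1092.8 in sample 1 and 825.5 in sample 2 (959 ± 189, n = 2). Set 1416134_at had 27.3 and 25.4 (26.4 ± 1.34). Sample 1 was the higher one for both, by 1.32-fold and 1.07-fold. The brighter set is of the _s_at kind, which can match transcripts of more than 1 gene. Without _s_at and _x_at sets, Aplp1 rests on the dim set alone. At 25.4 in sample 2 that set is below the gene threshold of 29.8, and Aplp1 kept its call because the threshold, taken again without such sets, fell to 12.6 in sample 1 and 18.9 in sample 2.

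Aplp2, the broadly expressed homolog, had 5 probe sets, of which 3 were above background in both samples. Set 1421887_a_at had 267.4 and 286.3 (277 ± 13.4, n = 2), and set 1423739_x_at had 270.9 and 270.4 (271 ± 0.354). These sets gave nearly the same level as each other and in both samples. Set 1421888_x_at was lower at 28.8 and 42.7. Set 1421889_a_at, at 10.5 and 24.9, passed the threshold in sample 2 alone, and set 1432344_a_at, at 10.6 and 2.8, in neither. Without _x_at and _s_at sets, 1 set of Aplp2 was above background in both samples.

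Itm2b, whose product limits the cutting of App, had 3 probe sets, of which 2 were above background in both samples. Set 1417999_at had 6539.0 in sample 1 and 7088.2 in sample 2 (6814 ± 388, n = 2). Set 1418000_a_at had 1224.5 and 893.7 (1059 ± 234). The first was higher in sample 2, by 1.08-fold, and the second in sample 1, by 1.37-fold, so these sets give the gene no common direction. Set 1418001_at, at 17.6 and 9.9, passed in sample 1 alone. The range over the sets of Itm2b, taken in the same way as for App, was at least 8.57 on the log2 scale, beside a median of 2.51 and a middle 50% of 1.48 to 3.77 over the 1573 such genes with 3 probe sets.

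**Figure D1:**
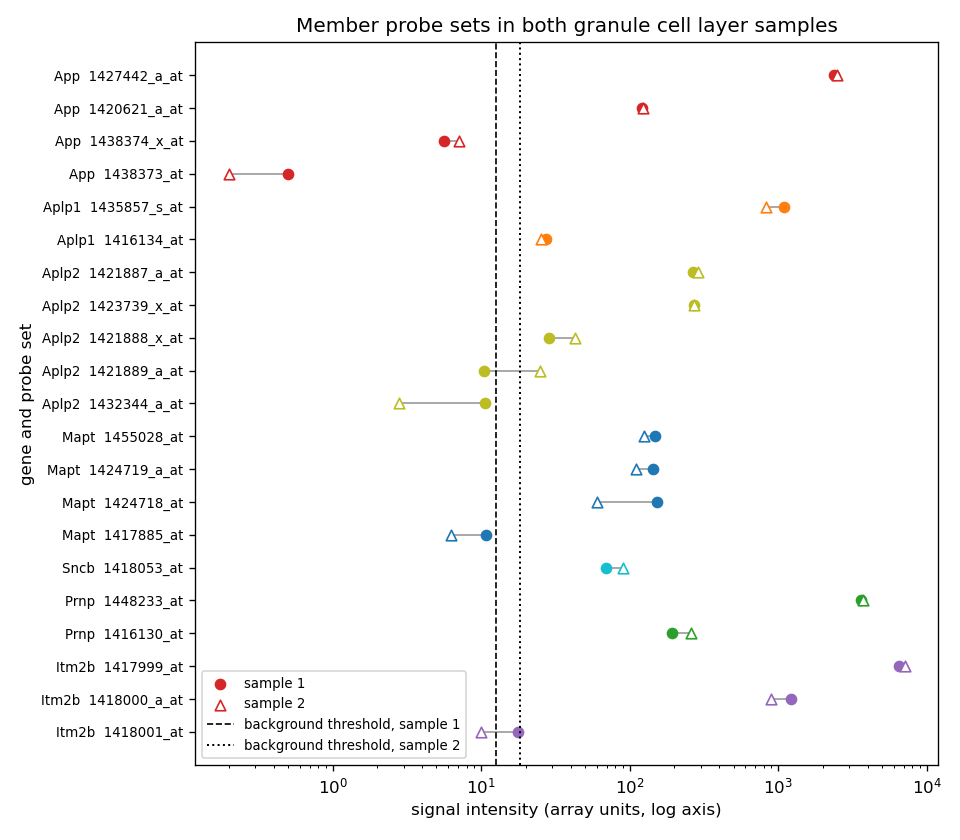
Signal intensity (array units, log axis) of each of the 21 probe sets of the 7 genes, with filled circles for sample 1, open triangles for sample 2 and vertical lines for the background threshold of each sample. Every gene has at least 1 set to the right of both lines, and 6 sets are not above both, among them App 1438373_at at 0.5 and 0.2.

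Mapt, which encodes tau, had 4 probe sets, of which 3 were above background. Set 1455028_at had 147.6 in sample 1 and 125.0 in sample 2 (136 ± 15.98, n = 2). Set 1424719_a_at had 143.4 and 110.0 (127 ± 23.6). Set 1424718_at had 152.7 and 60.5 (107 ± 65.2). In sample 1 the 3 sets lay between 143.4 and 152.7, and in sample 2 between 60.5 and 125.0. All 3 were higher in sample 1, by 1.18-fold, 1.30-fold and 2.52-fold. They come from the same arrays, so their shared direction is 1 observation of 1 gene in 2 samples. Set 1417885_at, at 10.7 and 6.3, was below background in both samples.

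Sncb, the beta-synuclein gene, had 1 probe set, 1418053_at, at 68.8 in sample 1 and 90.3 in sample 2 (79.6 ± 15.2, n = 2). Sample 2 was higher by 1.31-fold. Sncb lost its call as a gene when the gene threshold was set at the 99th percentile, 79.7 in sample 1 and 53.4 in sample 2. Its probe set still passed the 99th percentile threshold for single probe sets in both samples. The gene has no second probe set to compare with.

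Prnp, the prion protein gene, had 2 probe sets, both above background. Set 1448233_at had 3624.4 in sample 1 and 3744.6 in sample 2 (3685 ± 85.0, n = 2). Set 1416130_at had 191.9 and 258.7 (225 ± 47.2). Both were higher in sample 2 as deposited, by 1.03-fold and 1.35-fold, and the first turned with median scaling. The range between them was 4.05 on the log2 scale, and that between the sets of Aplp1 was 5.17, beside a median of 1.87 over the 2470 such genes with 2 probe sets.

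Probe sets of the same gene thus gave very different intensities. Of the 6 members with several sets, 4 (App, Aplp2, Mapt and Itm2b) had some above and some not above background, as had 78.8% of the 5588 genes with several sets and at least 1 above. The ranges of Aplp2 (at least 4.19, beside 2.15 to 4.79 for genes with 5 sets) and Mapt (at least 3.16, beside 1.94 to 4.27 for 4 sets) lay inside the middle 50% of other genes. A gene with a brighter set can show a wider range above the threshold, so the wider ranges of App, Itm2b, Prnp and Aplp1 are not read as particular to them. The amplification primes at the poly-A tail. The control probe sets at the 3′ end of Gapdh were 10.1 and 10.4 times as bright as those at its 5′ end in samples 1 and 2, and those of Actb 29.0 and 37.9 times. The positions of the members' probes were not used here, and the part of the 3′ lean in these ranges was not tested.

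**Figure D2:**
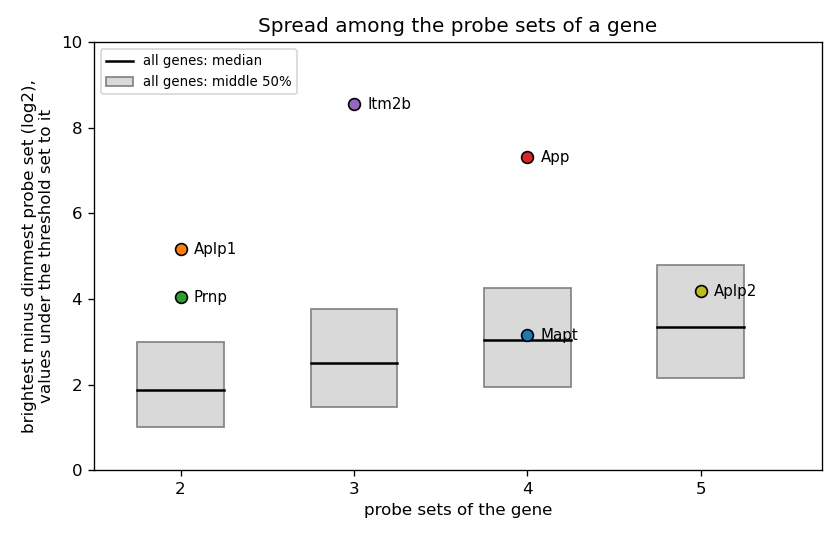
Difference between the brightest and the dimmest probe set of a gene (log2, averaged over both samples, with values under a sample's background threshold set to it) by the number of its probe sets. Grey bars span the middle 50% and black lines the median of all genes with at least 1 set above background, and coloured points are the members. App (at least 7.33), Itm2b (at least 8.57), Aplp1 (5.17) and Prnp (4.05) lie above their bars, and Aplp2 (at least 4.19) and Mapt (at least 3.16) within theirs.

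The samples were close for most member probe sets. Of the 15 above background in both, 1 was at least 2-fold apart, Mapt 1424718_at, with a log2 difference (sample 1 minus sample 2) of 1.34, against 14.3% of all 13856 such probe sets. That share is not matched for intensity, since 8068 of all the sets but only 3 member sets were below 100. Between 100 and 1000, 7 of 8 member sets and 93.1% of all sets were within 2-fold. Below 100, 3 of 3 member sets and 79.7% of all sets were, and at 1000 or more every set was. The median absolute log2 difference was 0.24 over the 15 member sets and 0.40 over all. Probe sets of 1000 or more varied least. The 4 member sets in that range, of App, Prnp and Itm2b (2 sets), had a median absolute difference of 0.087, against 0.12 for all 803 such sets. Between 100 and 1000 the values were 0.31 for 8 member sets and 0.31 for all 4985, and below 100 they were 0.39 for 3 member sets and 0.52 for all 8068. In each range of intensity the median of the member sets was no larger than that of all sets.

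The members had no common direction between the samples. Of the 15 sets, 7 were higher in sample 1 and 8 in sample 2, and 56.9% of all probe sets above background were higher in sample 2. The median log2 difference was -0.03 over the members, against -0.09 over all such sets. The sign of the members' median turned under quantile normalisation (0.03), with both arrays scaled to 1 median (0.04) and without a background filter (0.0027). In every set above background Mapt and Aplp1 were higher in sample 1, and Sncb in sample 2, as deposited and under both scalings. App and Prnp were higher in sample 2 as deposited, but with both arrays scaled to 1 median both App sets (0.015 and 0.042) and the brightest Prnp set (0.024) turned toward sample 1, as did App 1420621_a_at (0.026) under quantile normalisation. Aplp2 and Itm2b were mixed throughout. With median scaling 10 of the 15 sets were higher in sample 1 and 5 in sample 2, and 51.5% of all probe sets above background were higher in sample 2.

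**Figure D3:**
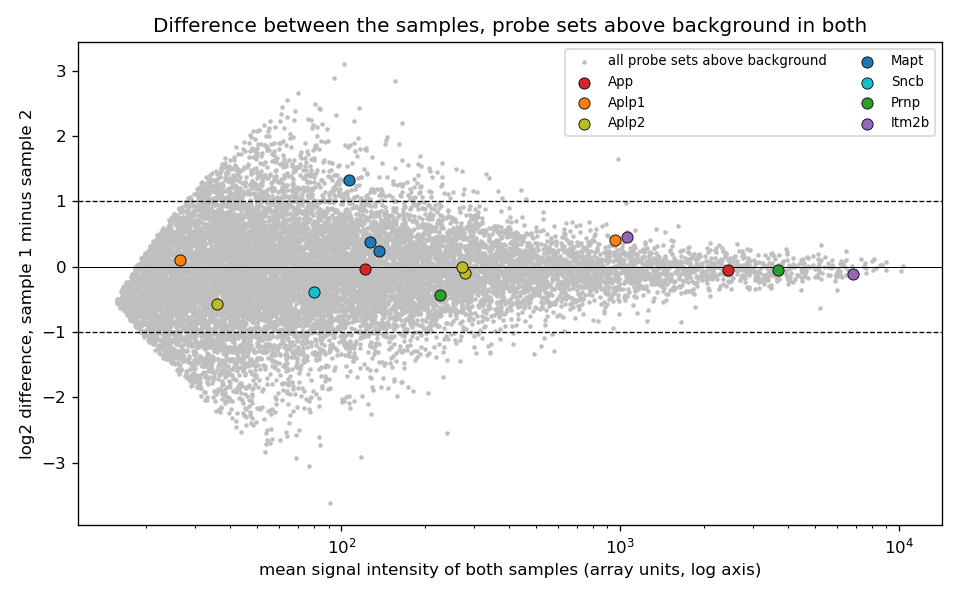
Log2 difference (sample 1 minus sample 2) against mean intensity (array units, log axis) for the 13856 probe sets above background in both samples (grey) and the 15 member sets (coloured by gene). Dashed lines mark a 2-fold difference, which only Mapt 1424718_at, at 1.34, exceeds among the members.

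Enzymes and partners of these proteins were taken from 8 lists of 97 genes, of which 90 were measured. Of the 90, 70 were above background in both samples (77.8%), against 38.0% of all named genes. Most were picked as genes known in brain, so this share is not read as particular to the lists. With the mean of all probe sets in place of the brightest, and the threshold taken again, the count was 56. Without _x_at and _s_at sets, and with the threshold taken again, it was 72. The values below for Apbb1, Clu, Vldlr, Stmn1, Map1lc3a, Ppp2r1a, Csnk1d, Mark4, Hspa8, Ywhaz and Pink1 come from such sets. These sets can match more than 1 transcript, so those levels may not be of the named gene alone. Of the 70 genes, 2 were at least 2-fold apart between the samples, against 10.2% of all named genes above background, not matched for intensity. They were the proprotein convertase gene Pcsk7 (84.4 and 40.1) and, named after its values were seen, the co-chaperone gene Stip1 (110.8 and 55.0), both higher in sample 1. The median log2 difference was -0.04 over the 70 genes and -0.09 over all named genes above background.

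Of 10 measured genes for enzymes that cut App, 7 were above background. Adam10, the main alpha-secretase of neurons, had 859.0 in sample 1 and 1218.4 in sample 2. Bace1, the beta-secretase, had 279.8 and 231.0, while its relative Bace2 was below background at 0.9 and 4.1. Within the gamma-secretase complex, Psenen had 796.9 and 821.4 and Aph1a 190.5 and 238.1. The nicastrin gene Ncstn, which encodes another subunit of that complex, was not above background, with 6.1 and 0.6 in its brightest set. That is not read as absence of its transcript. Of the 7 genes above background, 6 were higher in sample 2 and 1, Bace1, in sample 1, none by 2-fold, and 57.1% of all named genes above background were higher in sample 2. With quantile normalisation or median scaling 5 were higher in sample 2 and 2 in sample 1.

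Of 15 adaptors and sorting factors 13 were above background. The sorting receptor Sorl1, which directs App away from the compartments where it is cut, had 2162.4 and 2065.7. The reticulons Rtn4 (1379.2 and 1312.8) and Rtn3 (1154.4 and 1223.9), which bind Bace1, and the App adaptor Apbb1 (248.3 and 289.6) were also above background. The reelin receptor gene Lrp8 (22.1 and 17.0) and Gsap (6.0 and 27.6) were not. The count was 8 at the 99th percentile threshold. Of 9 genes for proteins that bind or degrade amyloid-beta, 7 were above background. The secreted chaperone Clu had 2824.7 and 2982.3, the protease inhibitor Cst3 579.3 and 481.7, the lipoprotein receptor Vldlr 329.3 and 616.5, and Apoe 213.5 and 189.6. Clu and Apoe are made largely by astrocytes, whose markers were above background for 7 of 10 genes, with a summed intensity of 5115 in sample 1 and 4975 in sample 2. The brightest of these markers, Gja1 (2689.0 and 2419.2), was read by an _x_at set. The part of astrocytes in the values of Clu and Apoe was not tested. The neprilysin gene Mme, an amyloid-degrading protease, was at 1.6 and 0.4, and Ece2 at 14.8 and 5.7, both below background.

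Of 8 genes related to Itm2b or to its cutting, 6 were above background. The paralogs Itm2c (1358.7 and 1270.5) and Itm2a (380.2 and 394.6) passed, with Itm2a also typical of blood vessels. Furin, which cuts Itm2b, was at 27.1 and 25.8 and passed in sample 1 alone, and Pcsk5, at 10.7 and 6.1, in neither. The count was 3 at the 99th percentile threshold.

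Of 12 genes for other microtubule-associated or tubulin-binding proteins, 10 were above background. The tubulin-binding protein gene Stmn1 had 4285.1 and 4242.6, the light chain gene Map1lc3a 2216.2 and 2011.3, the tubulin-folding cofactor Tbcb 423.2 and 531.6, and the dendritic protein gene Map2 298.3 and 343.9. Map6 (19.7 and 11.5) and Dcx, a marker of migrating young neurons (6.7 and 11.0), did not pass in both. Of 20 genes for tau kinases and phosphatases, 16 were above background. The scaffold subunit of protein phosphatase 2A, Ppp2r1a, had 4535.1 and 4748.6 and its catalytic subunit Ppp2ca 1385.9 and 1727.5. The casein kinase gene Csnk1d had 1606.3 and 1071.9, and Gsk3b, a principal tau kinase, had 203.0 and 267.7. Mark4 (17.9 and 18.8) and the phosphatase subunit Ppp2r2b (18.8 and 7.3) did not pass. This count was 10 with the mean of all probe sets.

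Of 11 measured relatives and partners of the synucleins, 8 were above background. These included the chaperone Hspa8 (8723.7 and 8599.7), its synaptic co-chaperone Dnajc5 (1971.5 and 1717.3), the 14-3-3 gene Ywhaz (2289.8 and 2252.2) and the mitochondrial kinase Pink1 (1317.0 and 1519.2). The gamma-synuclein gene Sncg, at 1.4 and 9.5, and Sncaip, at 4.7 and 2.2, were below background. Of 8 measured genes listed here as relatives or possible partners of the prion protein, 6 were above background. The laminin receptor gene Rpsa had 2535.5 and 2452.9, the cannabinoid receptor gene Cnr1 1190.5 and 1340.5, and the adhesion gene Ncam1 707.3 and 594.6. The prion family gene Sprn (11.6 and 8.8) and the glutamate receptor gene Grm5 (7.5 and 0.7) were below background.

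**Figure D4:**
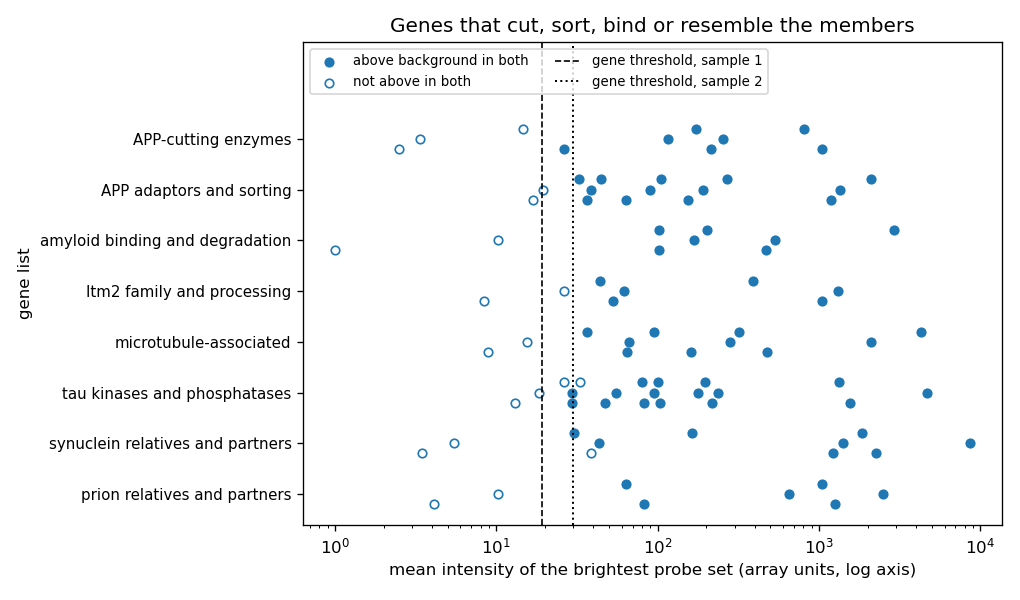
Mean intensity of the brightest probe set (array units, log axis) of each measured gene on the 8 lists, filled where the gene was above background in both samples and open where it was not, with lines for the gene threshold of each sample (19.1 and 29.8). Filled genes are 7 of 10 among the App-cutting enzymes, 13 of 15 among adaptors and sorting factors and 16 of 20 among tau kinases and phosphatases.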

How the data were processed

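The values the authors deposited are linear signal intensities, 1 for each probe set on each array, made with GCOS, the Affymetrix operating software, per the submitters' processing notes. Its version, settings and scaling were not given in the sources used here. Values were used as deposited. The 2 zeros of sample 1 and the 1 zero of sample 2 were set to 0.1 before log2. Of 45101 probe sets, 64 were controls, 34945 had 1 gene symbol, 932 several and 9160 none. Symbols were updated through the RefSeq gene table by gene ID for 34741. The brightest probe set stood for its gene. No detection calls were used. The background threshold was the 95th percentile over 101 organ-restricted genes of tissues outside the brain, of which 92 were measured by 150 probe sets. That list was written after the data were at hand, and 4 of its genes (Krt10, Inha, Tff1 and Ighm) were above background in both samples. Ranges among the probe sets of a gene were taken with values under a threshold set to it, a choice made after seeing the data.

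The members and gene lists were chosen with earlier results of these data known. All members were to be named, with up to 4 of the highest and 2 of the lowest genes of each list, 2 and 1 of each marker list, and the Gapdh and Actb controls. The text names fewer of the markers, and names Rgs8, Ppp1r17, Pvalb, Tyrobp and Cx3cr1 outside that rule. Alternatives were the 90th and 99th percentiles, olfactory receptor genes as background, quantile normalisation, median scaling, log2(value + 16), no filter, averaging a gene's probe sets, omission of _x_at and _s_at sets, and each sample alone. With 2 arrays in 1 group no p-value was computed, and their number limits the precision. Counting and normalisation steps were tested on simulated data. Python 3.11.15, numpy 2.4.6, pandas 2.3.3 and matplotlib 3.10.9 were used.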

Additional observations from a re-analysis of the deposited data

How the results depend on the processing

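All 7 genes stayed above background under every alternative run except the 99th percentile threshold, which left 6. Without _x_at and _s_at sets Aplp1 kept its call only with the threshold taken again. The same holds for App with the mean of all probe sets, where the threshold was taken from the averaged background genes. The count of member probe sets above background ranged from 12 (without _x_at and _s_at sets) to 17 (olfactory receptor background), and was 16 in either sample alone. The count of member sets at least 2-fold apart was 2 with the 90th percentile, 2 with the olfactory receptor background and 4 without a filter, since these settings admit more dim sets. The count of pathway genes above background ranged from 51 at the 99th percentile to 77 with the olfactory receptor background. With the mean of all probe sets, which takes in sets below background, mean log2 intensity fell from 11.25 to 4.79 for App and from 12.73 to 8.83 for Itm2b, and it fell from 9.89 to 4.72 for Aplp1 without _s_at and _x_at sets. Over the counts and the median that describe the members and the lists together, 39 alternative values stayed within 1.5 times the count or within 1 SD of the members' log2 differences (0.46), and 3 moved beyond that. Over single genes and lists these numbers were 161 and 13. Part of the 161 could not have moved. The mean log2 intensity of a gene lies midway between the samples, so neither sample alone can lie beyond the SD between them. Sncb has 1 probe set, so the mean of all its sets left its value at 6.30. Such values do not test robustness. Among the 39, the members' median counted as unmoved even where its sign turned (0.03, 0.04 and 0.0027), because the SD of 0.46 is wide beside it. The count of member genes could not exceed 7, and either sample alone could only raise a count. Neither the 161 nor the 39 is read as a measure of robustness. No paired analysis was possible because there is 1 group. Signal over background limits the dim sets, and the depth of an array is not defined.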
